A study of Mus musculus with 6 samples.

Results

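Genes that coat lipid droplets and break down the fat inside them were examined in dendritic cells sorted from mouse ovarian tumours with and without XBP1. The members were fixed by name as 2 coat proteins (Plin2 and Plin3), 3 lipases (Pnpla2, Lipe and Mgll), the lipase activator Abhd5, the lipase inhibitor G0s2 and the droplet protein Faf2. All 8 have a row among the 23225 genes of the count table. The row of Faf2 carries its older name mKIAA0887, which the RefSeq gene table of the mouse assembly GRCm38 gives as a synonym of this gene only, and the other 7 matched by symbol.

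A lipid droplet is a store of triglyceride and cholesteryl ester that buds from the endoplasmic reticulum and is wrapped in a single layer of phospholipid and in coat proteins of the perilipin family. Triglyceride is taken apart one fatty acid at a time, by adipose triglyceride lipase (the product of Pnpla2), hormone-sensitive lipase (Lipe) and monoglyceride lipase (Mgll) in turn. The first step is controlled by an activator, Abhd5 (CGI-58), and by inhibitors such as G0s2. In tumour-associated dendritic cells, stored lipid is known for going together with poor antigen presentation.

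The libraries were 3 from C57BL/6 mice in which XBP1 was conditionally deleted in CD11c-positive cells (XBP1-KO), and they were set against 3 from wild-type C57BL/6 mice (WT). XBP1 is a transcription factor of the endoplasmic reticulum stress response. All mice carried tumours of ID8, a cell line of mouse ovarian cancer that seeds the abdominal cavity and causes ascites, and cells were taken at day 23. The sources used here do not give the Cre driver, the age of the mice or the sort gate, and no label states that the 3 samples of a genotype came from separate mice, so a p-value covers only the variation among the samples, which may be technical. The libraries of each genotype are called a, b and c, and these letters pair nothing.

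Libraries held between 27706508 and 31325627 counts in XBP1-KO and between 26946349 and 32709100 in WT. Xbp1 itself averaged 34.6 ± 5.07 CPM (counts scaled to library size) in XBP1-KO and 64.2 ± 14.3 CPM in WT (SD, n = 3 each), with no overlap between the genotypes and the lower level in the libraries labelled as deleted, but it did not pass 0.05 (edgeR's quasi-likelihood test, adjusted p = 0.0545). The first principal component of log2 CPM held 33.5% of the variance. On it XBP1-KO libraries a, b and c lay at 29.4, 37.5 and 15.8, and WT libraries a, b and c at -32.8, 9.6 and -59.5. On the second, which held 22.2%, libraries XBP1-KO b at 30.1 and WT b at 38.3 stood apart from the other 4, of which XBP1-KO a at -45 was the farthest. Results are given without both b libraries where this matters. Of the markers of dendritic cells, Cd74, the chaperone chain of MHC class II, averaged 69900 CPM in XBP1-KO and 84380 CPM in WT, and H2-Ab1, an MHC class II beta chain, 3672 CPM in XBP1-KO and 3544 CPM in WT. The summed level of all 7 dendritic cell markers was 60300 to 86500 CPM in XBP1-KO and 65200 to 107000 CPM in WT, nearly all of it Cd74. Named after their values were seen, Itgax (CD11c) lay above every WT library, with means of 146 CPM in XBP1-KO and 103 CPM in WT, and Ciita, the activator of MHC class II genes, lay below, with 136 CPM in XBP1-KO and 189 CPM in WT, as did Zbtb46, with 7.39 CPM in XBP1-KO and 8.66 CPM in WT. Of the 7 markers 1 thus lay above and 2 below every WT library, against 8.8% and 10.4% of all tested genes. Cd74, H2-Ab1, Flt3 and Cd209a overlapped between the genotypes. None of the 7 passed.

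None of the 8 members passed an adjusted p of 0.05 over the 15958 genes tested, where 71 genes (0.445%) were called, 25 higher (0.157%) and 46 lower (0.288%) in XBP1-KO. Adjusted p-values of the members lay between 0.121 and 0.888, and 1 of the 8, G0s2, had an unadjusted p under 0.05, against 12.9% of all tested genes. The log2 fold change of XBP1-KO over WT was above 0 for 2 members, G0s2 and Mgll, and below 0 for the other 6, against 56.1% of all tested genes above 0. With libraries scaled by their size alone Abhd5 also lay above 0, by 0.02. The median over the 8 members was -0.18 and over all tested genes 0.06. XBP1-KO libraries lay above every WT library for G0s2 and Mgll, against 8.8% of all tested genes, and below every WT library for no member, against 10.4%.

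**Figure D1:**
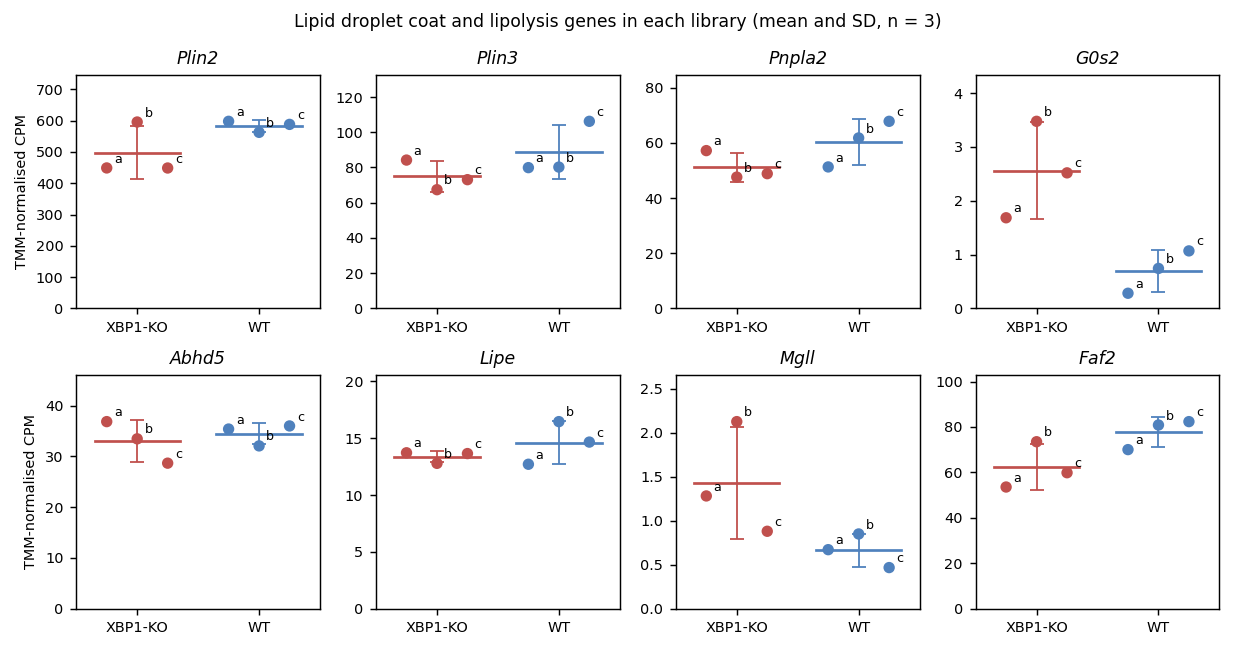
Each panel plots 1 gene, with TMM-normalised CPM on a linear axis from 0, a point and letter for each library, a line for the mean and a bar for the SD of the 3 XBP1-KO (left) and 3 WT (right) libraries. The groups are apart for G0s2 and for Mgll, both at a few CPM, and overlap for the other 6 genes.

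Promoter windows of the members were read for letters that XBP1 is known to bind, since XBP1 was the factor deleted. The windows are those of RefSeq on the mouse build GRCm38.p6, from 250 bases before to 50 after each gene start, and all 8 members matched, with 10 windows. The motifs, searched on both strands, were the unfolded protein response element TGACGTGG and its core ACGTGG, which the longer motif contains. The core was in 3 of the 10 member windows, against 8.31% of 32851 windows, and those 3 are of Plin2, Lipe and Mgll. The whole element was in none of the 10, against 0.676% of all windows. Such matches describe letters and show no binding. Shown are the bases from 250 before to 30 after the start of G0s2 and Mgll, the members whose genotypes were apart, and of Plin2, the most abundant, with the core in capitals. They lie at chr1:193273159-193273438 on the minus strand for G0s2, chr6:88724162-88724441 on the plus strand for the first Mgll window and chr4:86670030-86670309 on the minus strand for Plin2. The core lies at bases -3 to 3 around the start of Plin2 and -43 to -38 before that of Mgll, and the G0s2 window holds none.
G0s2: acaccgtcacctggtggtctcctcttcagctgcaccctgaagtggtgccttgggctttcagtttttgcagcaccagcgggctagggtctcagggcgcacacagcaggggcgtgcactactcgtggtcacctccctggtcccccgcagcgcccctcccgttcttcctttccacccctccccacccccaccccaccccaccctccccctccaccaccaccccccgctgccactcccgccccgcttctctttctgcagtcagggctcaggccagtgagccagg
Mgll: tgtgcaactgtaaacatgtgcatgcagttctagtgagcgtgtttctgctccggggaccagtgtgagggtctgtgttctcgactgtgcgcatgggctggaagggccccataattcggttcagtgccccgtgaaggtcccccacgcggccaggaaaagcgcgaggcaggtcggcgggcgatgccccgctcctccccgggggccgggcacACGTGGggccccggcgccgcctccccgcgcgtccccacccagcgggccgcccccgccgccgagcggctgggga
Plin2: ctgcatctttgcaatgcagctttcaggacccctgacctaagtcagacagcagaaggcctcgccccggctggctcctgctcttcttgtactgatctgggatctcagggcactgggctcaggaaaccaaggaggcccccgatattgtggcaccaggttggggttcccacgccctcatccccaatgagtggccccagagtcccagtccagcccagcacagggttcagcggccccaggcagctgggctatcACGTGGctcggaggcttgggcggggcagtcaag
Of the 3 genes whose windows hold the core, Mgll was apart between the genotypes and Plin2 and Lipe overlapped. G0s2, with neither motif in its window, was apart too. No member was called, and whether these letters bear on the levels was not tested.

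Plin2 (perilipin 2, adipophilin), on mouse chromosome 4, is the perilipin of most cells other than fat cells, and its protein is stable only on a droplet. Its level was 449, 596 and 449 CPM in XBP1-KO libraries a, b and c, against 598, 563 and 588 CPM in WT libraries a, b and c. Libraries XBP1-KO a and c lay below every WT library, while XBP1-KO b lay within the WT range. The means were 498 ± 84.8 CPM in XBP1-KO and 583 ± 18.2 CPM in WT (SD, n = 3 each), and the log2 fold change was -0.23 (SE 0.14, 95% interval -0.53 to 0.07; adjusted p = 0.528). Without library XBP1-KO b it was -0.39 (adjusted p = 0.211), and without both b libraries -0.42 (adjusted p = 0.0901). The interval in all 6 libraries covers levels in XBP1-KO between 0.693 and 1.05 times those in WT.

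Plin3 (perilipin 3, TIP47), on chromosome 17, codes for a perilipin that is soluble in the cytosol and is recruited to newly formed droplets. It had 84.2, 67.4 and 73.1 CPM in XBP1-KO libraries a, b and c, against 79.9, 80.2 and 106 CPM in the WT libraries. Library WT c was the highest of the 6, and XBP1-KO a lay above WT a and b. The log2 fold change was -0.25 (SE 0.15, 95% interval -0.57 to 0.08; adjusted p = 0.529). The proportion of Plin2 to Plin3 had the same mean in both genotypes, with overlapping libraries. The log2 ratio of Plin2 to Plin3 counts was 2.41, 3.14 and 2.62 in XBP1-KO libraries a, b and c, against 2.90, 2.81 and 2.47 in WT, with means of 2.73 ± 0.38 and 2.73 ± 0.23 (SD, n = 3 each). A two-sided exact permutation test over the 6 libraries gave p = 1. With 3 libraries against 3 the smallest p this test allows is 0.1, so it cannot pass 0.05.

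Pnpla2 (adipose triglyceride lipase), on chromosome 7, makes the first cut, from triglyceride to diglyceride. It had 57.2, 47.6 and 48.9 CPM in XBP1-KO libraries a, b and c, against 51.3, 61.8 and 67.9 CPM in the WT libraries. Libraries XBP1-KO b and c lay below every WT library and XBP1-KO a lay within the WT range. The log2 fold change was -0.24 (SE 0.15, 95% interval -0.56 to 0.08; adjusted p = 0.541). Lipe (hormone-sensitive lipase), also on chromosome 7, cuts diglyceride and cholesteryl ester. Its 13.7, 12.8 and 13.7 CPM in XBP1-KO and 12.7, 16.5 and 14.7 CPM in WT overlapped, with a log2 fold change of -0.13 (SE 0.18; adjusted p = 0.807). Exons of Lipe share 918 bases with the antisense transcript 4732471J01Rik in the GENCODE M21 annotation, and whether the counting used the strand is not stated in the sources. That transcript had 1.09 ± 0.55 CPM in XBP1-KO and 1.31 ± 0.42 CPM in WT (SD, n = 3 each), well under Lipe in every library.

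Abhd5 (CGI-58), on chromosome 9, codes for the partner that activates adipose triglyceride lipase at the droplet surface and has no lipase activity of its own. Its level was 36.9, 33.5 and 28.7 CPM in XBP1-KO libraries a, b and c, against 35.4, 32.1 and 36.0 CPM in the WT libraries. The highest and the lowest library were both XBP1-KO. The log2 fold change of -0.06 (SE 0.15, adjusted p = 0.888) had a 95% interval of -0.39 to 0.26. This interval leaves levels between 0.763 and 1.2 times those of WT, so a 2-fold change lies outside it. Exons of Abhd5 share 950 bases with the antisense gene A730085K08Rik in GENCODE M21, which is not analysed here.

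G0s2 (G0/G1 switch gene 2), on chromosome 1, codes for a small protein that binds adipose triglyceride lipase and blocks it, and it is known from fat, liver and activated blood cells, including neutrophils. Its counts were 46, 103 and 83 in XBP1-KO libraries a, b and c, against 8, 21 and 32 in WT libraries a, b and c, which is 1.68, 3.48 and 2.52 CPM in XBP1-KO and 0.283, 0.743 and 1.07 CPM in WT. Each XBP1-KO library lay above each WT library, and within WT the highest library held 3.78 times the lowest. The means were 2.56 ± 0.90 CPM in XBP1-KO and 0.698 ± 0.395 CPM in WT (SD, n = 3 each). The fitted level was 3.64-fold that of WT (95% interval 1.71 to 7.77), and the log2 fold change was 1.87 (SE 0.51; adjusted p = 0.121). G0s2 therefore did not pass over all genes, although it had the smallest p of the 8 members. It passed in 2 of the 17 alternatives, DESeq2 at 0.0208 and edgeR's likelihood ratio test at 0.0332, and the adjusted p over all 17 ran from 0.0208 to 0.288. The log2 fold change ran from 1.11 to 2.31 over the 17, and the 1.11, from the deposited CPM as log2(CPM + 1), is on a scale that understates changes of genes near 1 CPM. Without both b libraries the log2 fold change was 1.61 (adjusted p = 0.288). The 2 tests in which it passed also called more genes across the table, 484 with DESeq2 and 255 with the likelihood ratio test.

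Because G0s2 and Abhd5 act on the same lipase in opposite ways, the 3 genes were also set against each other within each library, where scaling has no part. For each count of G0s2 there were 34, 13.7 and 19.4 counts of Pnpla2 in XBP1-KO libraries a, b and c, against 182, 83.2 and 63.5 in the WT libraries. The log2 ratio of G0s2 to Pnpla2 was -4.38 ± 0.66 in XBP1-KO and -6.62 ± 0.79 in WT (SD, n = 3 each), a difference of 2.24. The log2 ratio of G0s2 to Abhd5 was -3.74 ± 0.63 in XBP1-KO and -5.83 ± 1.01 in WT, a difference of 2.08. Every XBP1-KO library lay above every WT library for both ratios, and the two-sided exact permutation test gave p = 0.1 for each, the smallest it allows. Both ratios share the G0s2 counts and are not separate results. The log2 fold change was 1.87 for G0s2, against -0.24 for Pnpla2 and -0.06 for Abhd5, so the ratios largely restate that of G0s2. Whether the 3 genes were read from the same cells was not tested. The ratio of activator to lipase, Abhd5 to Pnpla2, was -0.64 ± 0.13 in XBP1-KO and -0.80 ± 0.23 in WT on the log2 scale, with overlapping libraries and an exact p of 0.3.

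**Figure D2:**
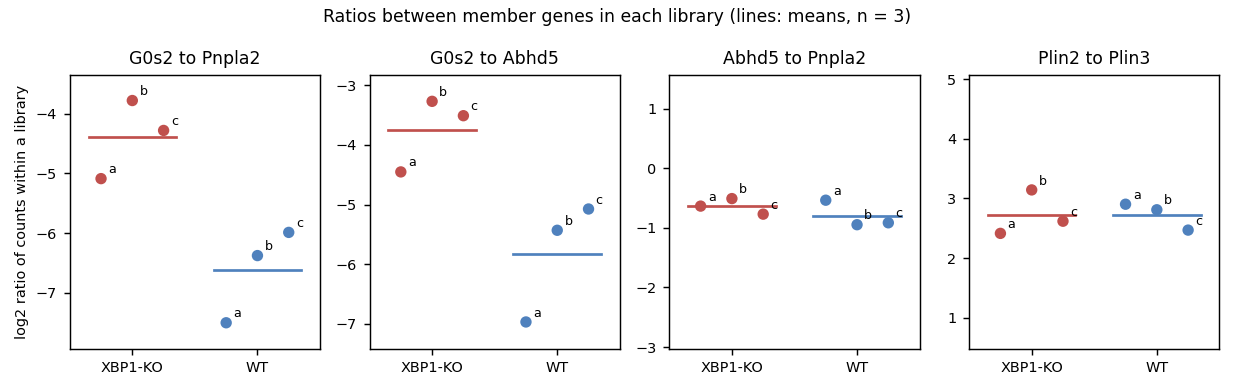
Points are log2 ratios of counts of 2 genes within each library (letters), and lines are the means of the 3 XBP1-KO (left) and 3 WT (right) libraries. All 4 panels span the same number of log2 units. Ratios with G0s2 on top are apart by 2.24 and 2.08, and the ratios of Abhd5 to Pnpla2 and Plin2 to Plin3 overlap.

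Markers of other cells differed between the same libraries, and their values stand here beside G0s2. All 9 neutrophil markers in the table had higher means in XBP1-KO, with a summed level of 379 to 550 CPM in XBP1-KO and 128 to 306 CPM in WT, and none was called or at 0 in every library. Retnlg, a resistin-like protein of neutrophils, averaged 129 ± 7.29 CPM in XBP1-KO and 41.9 ± 25.6 CPM in WT, and S100a8, a calcium-binding protein of neutrophils and monocytes, 88.8 ± 24.7 CPM in XBP1-KO and 24.8 ± 22.3 CPM in WT (SD, n = 3 each). The markers differed among themselves in the order of the libraries. Of the XBP1-KO libraries G0s2 was highest in b, as were 3 of the 9 markers, while 5 were highest in c and 1 in a. The G0s2 counts in WT libraries a, b and c were only 8, 21 and 32, so their order is uncertain. Of the WT libraries G0s2 was highest in c, where none of the 9 was, with 6 highest in a and 3 in b. The 3 that were highest in both b libraries, named after their values were seen, were the receptors Csf3r and Cxcr2 and the protease Mmp9. Csf3r had 25.0, 51.9 and 32.4 CPM in XBP1-KO libraries a, b and c, against 30.6, 44.5 and 27.9 CPM in WT. Csf3r, Cxcr2 and Mmp9 each overlapped between the genotypes. For 3 of the 9 markers, S100a8, S100a9 and Retnlg, every XBP1-KO library lay above every WT library, against 8.8% of all tested genes. The same held for 8 of 12 markers of T and NK cells and for 2 of 5 B cell markers. All 12 markers of T and NK cells had higher means in XBP1-KO and 5 of them (Cd3e, Nkg7, Ncr1, Xcl1 and Lck) rose, against 0.157% of all tested genes, with a sum of 268 to 403 CPM in XBP1-KO and 161 to 177 CPM in WT. Of the XBP1-KO libraries, 11 of the 12 were highest in b, as G0s2 was, and 1 in a. Of the WT libraries, 7 were highest in b, 5 in a and 0 in c. Klrb1c (NK1.1) at 59.6 CPM in XBP1-KO and 54.0 CPM in WT and Cd2 at 54.1 CPM in XBP1-KO and 40.7 CPM in WT had the highest means of that list over all 6 libraries, and neither passed. The count of 5 became 1 without WT a, WT c or XBP1-KO a, 3 without WT b or without both b libraries, and 2 with library size alone or with the deposited CPM in limma. All 5 B cell markers had higher means too, with a sum of 336 to 487 CPM in XBP1-KO and 130 to 312 CPM in WT, led by Cd79b of the B cell receptor (127 CPM in XBP1-KO and 72.9 CPM in WT) and Ms4a1, or CD20 (115 CPM in XBP1-KO and 67.6 CPM in WT), and none of the 5 passed. All 5 were highest in c of the XBP1-KO libraries, and of the WT libraries 4 were highest in a and 1 in b. The part of these cells in the level of G0s2 was not tested, and in RNA of a sorted pool, more cells of a type and more RNA per cell cannot be told apart.

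Fat cells are the other rich source of several members. Of 8 adipocyte markers 7 had a row, and Adipoq (adiponectin), Cidec, Retn and Plin1 (the perilipin of fat cells) lay under 0.5 CPM in every library, while Lep (leptin) had 0, 0.675 and 1.30 CPM in XBP1-KO libraries a, b and c, against 0.177, 1.24 and 0.401 CPM in WT. The sum of the 7 was 446 to 604 CPM in XBP1-KO and 573 to 665 CPM in WT and was nearly all Lpl, a lipase that macrophages and dendritic cells also make, with 527 CPM in XBP1-KO and 611 CPM in WT. Fabp4, a fatty acid carrier that macrophages share, had 11.8 CPM in XBP1-KO and 7.08 CPM in WT. The summed markers of resident macrophages (711 to 1060 CPM in XBP1-KO and 640 to 815 CPM in WT, led by Emr1 and Cd5l) and of ID8 and mesothelial cells (106 to 186 CPM in XBP1-KO and 125 to 168 CPM in WT, led by Krt19 and Krt18) overlapped between the genotypes.

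**Figure D3:**
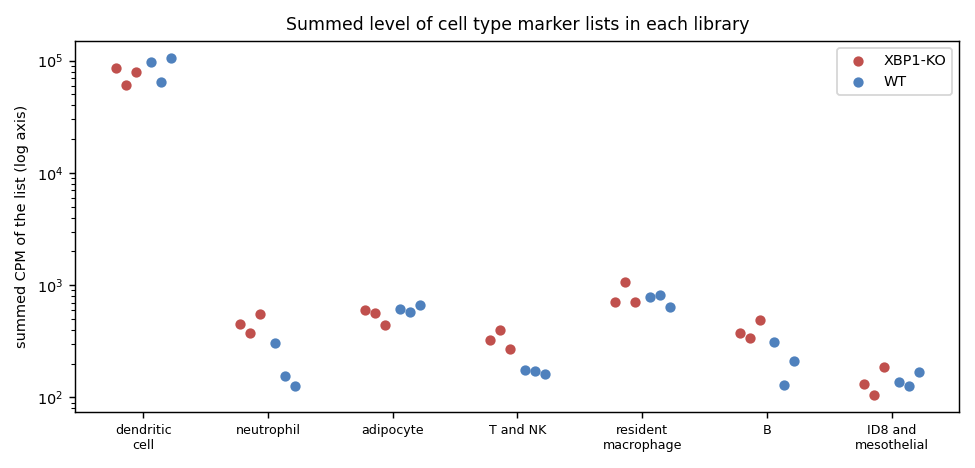
Points are the summed CPM of each marker list in each library on a log axis, for XBP1-KO (red, left) and WT (blue, right). The neutrophil, T and NK and B cell sums of XBP1-KO lie above all those of WT, and the other 4 lists overlap.

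Mgll (monoglyceride lipase), on chromosome 6, releases the last fatty acid and also breaks down the endocannabinoid 2-arachidonoylglycerol. It had 35, 63 and 29 counts in XBP1-KO libraries a, b and c, against 19, 24 and 14 counts in the WT libraries. In CPM this was 1.28, 2.13 and 0.880 in XBP1-KO and 0.671, 0.849 and 0.468 in WT, so the genotypes were apart by little, with XBP1-KO c just above WT b. Of the 8 members Mgll was the scarcest in the XBP1-KO libraries, and in WT a and b G0s2 was scarcer. The fitted level was 2.15-fold that of WT (95% interval 0.984 to 4.69), a log2 fold change of 1.10 (SE 0.52, adjusted p = 0.401). Without XBP1-KO b the log2 fold change was 0.69 (adjusted p = 0.685), and without both b libraries 0.90 (adjusted p = 0.526). At these counts the interval spans no change and more than a 4-fold difference. Exons of Mgll share 167 bases with the antisense gene Gm26588 in GENCODE M21, which is not analysed here.

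Faf2 (UBXD8), on chromosome 13, codes for a protein of the endoplasmic reticulum and of droplets that recruits the ATPase VCP. It takes part in the degradation of endoplasmic reticulum proteins and is known from cultured cells to restrain adipose triglyceride lipase by parting it from CGI-58. It had 53.6, 73.5 and 59.9 CPM in XBP1-KO libraries a, b and c, against 70.0, 80.9 and 82.4 CPM in the WT libraries. Libraries XBP1-KO a and c lay below every WT library and XBP1-KO b lay above WT a alone. The log2 fold change was -0.32 (SE 0.15, 95% interval -0.64 to 0.00; adjusted p = 0.389), and without XBP1-KO b -0.47 (adjusted p = 0.174). Library b was the highest of the XBP1-KO libraries for Faf2, Plin2, G0s2 and Mgll alike.

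**Figure D4:**
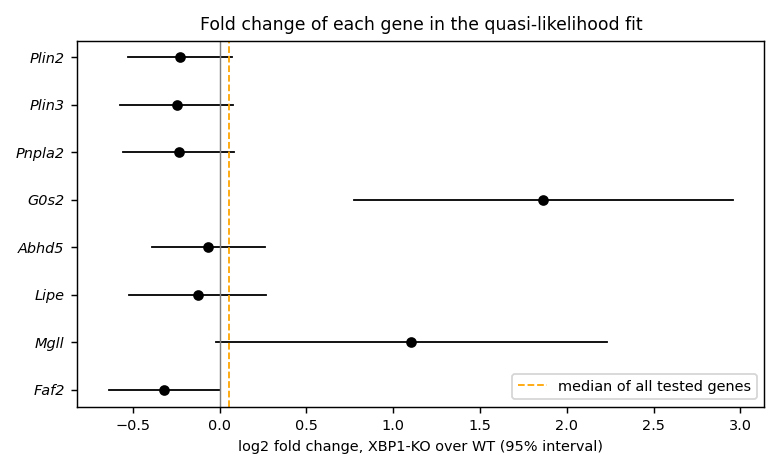
Points are log2 fold changes of XBP1-KO over WT from the fit across all genes, with 95% intervals, and the dashed line is the median of all tested genes at 0.06. G0s2 lies at 1.87 and Mgll at 1.10 with wide intervals, and the other 6 lie between -0.32 and -0.06.

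Levels of different genes were set side by side per length of transcript, as CPM per kilobase of the longest RefSeq-linked protein-coding transcript in GENCODE M21. Plin2 led with 264 ± 44.9 CPM per kilobase in XBP1-KO and 309 ± 9.62 in WT (SD, n = 3 each). It was followed by Plin3 (20.5 in XBP1-KO and 24.4 in WT) and Pnpla2 (19.5 in XBP1-KO and 23.0 in WT), whose ranges over libraries overlapped in each genotype. Next came Faf2 with 14.4 ± 2.36 in XBP1-KO and a range of 16.2 to 19.1 in WT, Abhd5 with 10.5 in XBP1-KO and 10.9 in WT, and Lipe with 3.71 in XBP1-KO and 4.04 in WT, each with its range over libraries below that of the gene before it in both genotypes. G0s2 had 2.94 ± 1.03 in XBP1-KO, where its range of 1.93 to 3.99 took in that of Lipe, and 0.802 ± 0.454 in WT, where it lay below Lipe. Mgll was last with 0.358 in XBP1-KO and 0.166 in WT. Transcript usage in these cells was not measured, so these levels rest on the annotated lengths.

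The perilipins that are known from fat, muscle and heart were scarce. Plin1, Plin4 and Plin5 lay under 0.5 CPM in every library and did not pass the filter on low counts, so they were not tested. Pnpla3, the paralog of Pnpla2, had 2.93, 3.75 and 4.16 CPM in XBP1-KO libraries a, b and c, against 2.51, 2.65 and 1.64 CPM in WT libraries. All 3 XBP1-KO libraries lay above the WT libraries, and the log2 fold change was 0.67 (SE 0.33, adjusted p = 0.413).

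Other genes of the pathway were read from 4 lists, and no gene of these lists was called. Of 23 genes of droplet coat and formation, 17 were tested, 6 lay higher and 11 lower, with a median log2 fold change of -0.13. The smallest p was that of Hilpda, a droplet protein induced by hypoxia that also inhibits adipose triglyceride lipase. It had 11.9, 11.1 and 7.07 CPM in XBP1-KO libraries a, b and c, against 7.42, 6.87 and 5.61 CPM in WT, with a log2 fold change of 0.60 (SE 0.25, adjusted p = 0.329). Libraries XBP1-KO a and b lay above every WT library and XBP1-KO c lay between WT b and WT a.

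Of 16 other genes of neutral lipid hydrolysis, 13 were tested, with 6 higher, 7 lower and a median of -0.02. Daglb, a diglyceride lipase that makes 2-arachidonoylglycerol, the substrate of Mgll, had the smallest p. It averaged 136 ± 31.4 CPM in XBP1-KO and 214 ± 80.7 CPM in WT (SD, n = 3 each), with overlapping libraries and a log2 fold change of -0.66 (SE 0.27, adjusted p = 0.35). All 17 genes of fatty acid oxidation, the mitochondrial and peroxisomal use of what lipolysis releases, were tested, and 6 lay higher and 11 lower with a median of -0.07. Cpt1a, which admits long-chain fatty acids to mitochondria, had 63.9, 83.6 and 69.9 CPM in XBP1-KO libraries a, b and c, against 110, 100 and 112 CPM in WT. Every XBP1-KO library lay below every WT library, and the log2 fold change was -0.57 (SE 0.14; adjusted p = 0.0896). Of 13 PPAR receptors and known targets, 12 were tested, with 7 higher, 5 lower and a median of 0.16. Fabp4 had the smallest p of these, with 9.19, 11.6 and 14.7 CPM in XBP1-KO and 9.43, 6.30 and 5.51 CPM in WT and a log2 fold change of 0.74 (SE 0.26, adjusted p = 0.237). Over all tested genes 56.1% lay higher in XBP1-KO and the median was 0.06.

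**Figure D5:**
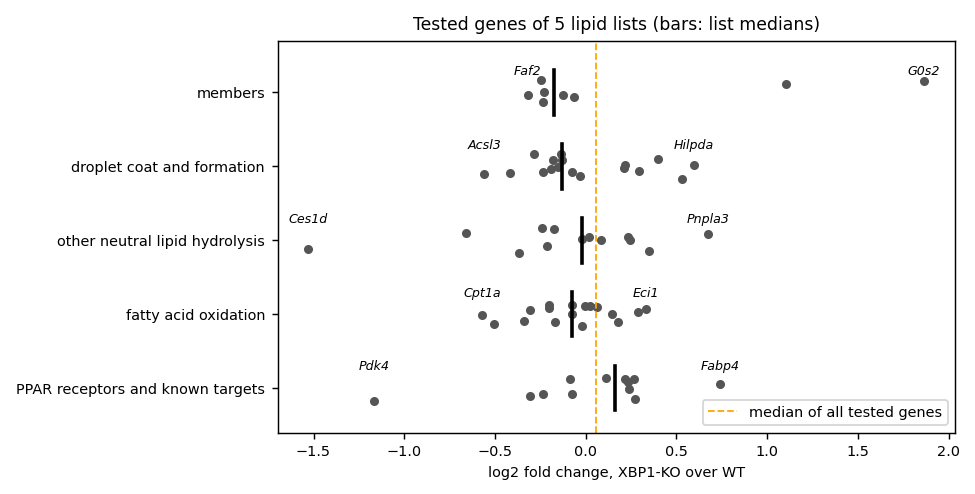
Each point is the log2 fold change of XBP1-KO over WT of 1 tested gene, by list, with the list's median as a bar, its lowest and highest gene named and the median of all tested genes as a dashed line. No gene shown was called, and G0s2 at 1.87 is the highest.

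The genes whose pattern over the 6 libraries was most like that of a member were found by the root mean square difference of centred log2 CPM among 13296 other tested genes with a mean of at least 1 CPM. Nearest to G0s2 were Rnf125, a ubiquitin ligase (0.344), Tlr5, the receptor of flagellin (0.361), and Cd96, a receptor of T and NK cells (0.377). In all 3 the XBP1-KO libraries lay above the WT libraries, which follows largely from their choice by likeness to G0s2 in these libraries. Nearest to Plin2 were Hacl1, a peroxisomal lyase of fatty acid alpha-oxidation (0.0271), the adhesion receptor Cd44 (0.0343) and AK163149 (0.0393). By the same kind of choice, their XBP1-KO libraries b also lay near the WT level. Cd44 had 403, 506 and 389 CPM in XBP1-KO libraries a, b and c, against 505, 473 and 519 CPM in WT.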

How the data were processed

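RNA of sorted tumour dendritic cells was sequenced from 3 XBP1-KO and 3 WT samples. The submitters' processing notes name RSEM, edgeR and mm9, with no version or role. The deposited tables hold whole-number counts for 23225 genes, not normalized, and CPM for 13946 genes, which equal the count over the library total within 5.1e-11. The columns give the genotype and no replicate number, and no column was left out.

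Counts of 15958 genes kept by filterByExpr were scaled by TMM and tested two-sided with the quasi-likelihood F test of edgeR 4.0.16 (R 4.3.3, robust), Benjamini-Hochberg adjusted over all of them and called under 0.05. Standard errors are the absolute log2 fold change over the square root of F, and CPM in the text is TMM-normalised. The test was checked on simulated counts with the same coefficient of variation, 0.25, for every gene. That simulation held no spread of variation among genes and no libraries that stand apart, so it does not cover these features of the data. Alternatives used DESeq2 1.42.0, limma 3.58.1, other scalings and filters, and fewer libraries.

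The members, lists and rules were chosen with earlier results of these data known. Named genes were the members, their paralogs, called genes of each lipid list or that with the smallest p, the 2 highest of each marker list and any listed at 0, and the nearest patterns; others named from marker lists were chosen after their values were seen. Of 132 list entries 130 matched a row, by symbol or unambiguous synonym. Libraries of 1 genotype differed by more than sampling noise (chi-square per degree of freedom 22.5 to 74.5). The common biological coefficient of variation of 0.25 limits precision, and counting error adds to it for G0s2 and Mgll.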

Additional observations from a re-analysis of the deposited data

How the results depend on the processing

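The number of genes called across the table was 71. It was 484 with DESeq2, 255 with the likelihood ratio test, 252 with no filter on low counts, 47 with limma-voom, 45 without robust estimation, 25 with library size alone and, for the deposited CPM in limma, 25 with a pseudocount of 1 and 13 with 0.1. With 1 library left out it ran from 5 (without WT c) to 154 (without XBP1-KO b), and was 13 without XBP1-KO a, 16 without XBP1-KO c, 38 without WT a and 40 without WT b. Higher and lower calls were 25 and 46, against 108 and 376 with DESeq2, 61 and 191 with no filter, 23 and 27 under upper quartile scaling, 13 and 12 both for library size alone and for the deposited CPM plus 1, 12 and 1 with the deposited CPM plus 0.1, 4 and 1 without WT c, 32 and 122 without XBP1-KO b, 9 and 4 when XBP1-KO a was dropped, 15 and 1 when XBP1-KO c was dropped, and 13 and 57 without both b libraries. Members called were 0, and 1 with DESeq2 and with the likelihood ratio test, in both cases G0s2, with log2 fold changes of 1.85 and 1.87 within a range of 1.11 to 2.31 over all alternatives. DESeq2 gave Mgll no adjusted p. Genes of fatty acid oxidation called were 0, and 1 with DESeq2, with no filter and without XBP1-KO b, with a range of 0 to 1 over the libraries left out. Of the 8 members, 7 kept their direction in all 17 alternatives. Abhd5, at -0.06, lay at 0.016 with library size alone and at 0.011 with the deposited CPM under either pseudocount, and ran from -0.154 to 0.004 with 1 library left out. The difference in the log2 ratio of Plin2 to Plin3 was -0.00 and ran from -0.21 to 0.15 with 1 library left out. The cause of these shifts was not tested. No paired analysis was possible because the columns carry no replicate number.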
